A study of Mus musculus with 12 samples.

Results

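The CCAAT/enhancer binding protein (C/EBP) family was examined in the fetal mouse testis. Its members were the rows whose symbol was Cebpa, Cebpb, Cebpd, Cebpe or Cebpg, which gave 5 genes of the 24470 in the count table. RNA-seq was made from whole testes at E14.5, with 6 pools of 3 testes from control embryos (Nr2f2 f/f) and 6 pools of 3 from cKO embryos (Wt1-CreER with Nr2f2 f/f). Both groups carried the floxed Nr2f2 alleles, and the pregnant females had received tamoxifen on days before the collection. The groups thus differed by the CreER allele at the Wt1 locus. An effect of that allele other than the loss of Nr2f2 was not tested. Nr2f2 encodes COUP-TFII, a nuclear receptor of interstitial cells. CreER came from the Wt1 locus, which is active in the progenitors of several gonadal cell types, so cells outside the interstitium could also lose Nr2f2. The comparison asked how loss of Nr2f2 changed the transcripts of the testis, here those of the C/EBP genes.

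C/EBP proteins are basic leucine zipper (bZIP) factors. They bind DNA as dimers, with each other and with some other bZIP proteins, and the basic region reads a palindromic site. C/EBPα drives the myeloid lineage and late fat cell differentiation, C/EBPβ and C/EBPδ respond to inflammatory cytokines and cyclic AMP, C/EBPε acts in the late steps of granulocyte maturation, and C/EBPγ lacks a strong activation domain and works mostly as a dimer partner. In steroidogenic cells, C/EBPβ is known to bind the promoter of Star, the cholesterol carrier of the mitochondrion, and luteinizing hormone raises its level in Leydig cells.

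Promoter sequence was taken from RefSeq on GRCm38.p6, the build that the files name as mm10, and 3 of the 5 genes matched an entry (Cebpa, Cebpb and Cebpg). The 250 bases before the annotated start are shown to let a reader see the base composition and the short elements that set these promoters apart. Capitals mark TGACG or its reverse complement CGTCA, part of a cyclic AMP element, in Cebpb (chr2:167688665-167688914, plus strand). In Cebpg (chr7:35056567-35056816, minus strand) they mark the reverse complement, ATTGG, of CCAAT. Cebpa (chr7:35119043-35119292, plus strand) held none of the searched letters and has no capitals.
Cebpb: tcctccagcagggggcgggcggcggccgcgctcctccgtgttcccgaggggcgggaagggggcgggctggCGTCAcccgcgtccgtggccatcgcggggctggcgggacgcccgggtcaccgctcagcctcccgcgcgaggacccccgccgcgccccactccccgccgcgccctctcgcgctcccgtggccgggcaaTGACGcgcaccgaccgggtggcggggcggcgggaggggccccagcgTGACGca
Cebpg: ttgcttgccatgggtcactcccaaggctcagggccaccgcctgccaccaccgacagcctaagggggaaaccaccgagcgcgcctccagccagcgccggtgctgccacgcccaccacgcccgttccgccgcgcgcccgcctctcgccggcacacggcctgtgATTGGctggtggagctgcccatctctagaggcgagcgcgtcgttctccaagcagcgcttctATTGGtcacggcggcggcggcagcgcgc
Cebpa: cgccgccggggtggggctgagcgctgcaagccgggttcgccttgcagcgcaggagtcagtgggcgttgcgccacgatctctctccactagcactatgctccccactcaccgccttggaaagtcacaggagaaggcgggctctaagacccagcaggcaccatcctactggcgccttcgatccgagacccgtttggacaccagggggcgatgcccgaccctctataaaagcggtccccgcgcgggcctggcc

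The Cebpb window had 3 TGACG matches, the first letters of which lay 180, 53 and 7 bases before the start. The match farthest from the start was on the opposite strand and the others were on the strand of the gene. Of 32851 windows of 250 bases in the RefSeq table, 17.8% held at least one TGACG on either strand and 0.688% held 3 or more. Cebpg had 2 CCAAT matches, at 89 and 28 bases before the start, both on the opposite strand, and 33.8% of all windows held CCAAT. The complete cyclic AMP element TGACGTCA (1.55% of windows), the C/EBP palindrome TTGCGCAA (0.164%) and the nuclear receptor site AGGTCA (14% of windows) were in none of the 3 windows. A match is a string of letters and not a measured binding site. The windows were rich in G and C, with 81.6% in Cebpb, 70.8% in Cebpg and 66.4% in Cebpa.

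On mm10 the genes lay at chr7:35119293-35121928 (Cebpa, plus strand), chr2:167688915-167690432 (Cebpb, plus), chr16:15887286-15889545 (Cebpd, plus), chr14:54710363-54712174 (Cebpe, minus) and chr7:35046422-35056566 (Cebpg, minus). Cebpa and Cebpg are neighbours on chromosome 7, transcribed in opposite directions from starts that face each other. In the GENCODE transcript used for length, Cebpa, Cebpb and Cebpd had 1 exon and Cebpe and Cebpg had 2 exons. The end of Cebpd overlaps Spidr on the opposite strand, and reads were counted by strand.

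Total counts per library ran from 7044531 to 59404778. In the check of the labels, Nr2f2 had 163 to 186 CPM (counts scaled to library sizes adjusted by TMM) in the 6 control pools and 50.2 to 119 CPM in the 6 cKO pools, a log2 fold change of -1.21 (edgeR quasi-likelihood test, adjusted p = 0.000548), so part of the transcript was left in every cKO pool. The Xist transcript, which is made by cells with an inactive X chromosome, was at 304 to 891 CPM in 4 libraries (control replicate 1 and cKO replicates 3, 5 and 6) and at 5.16 to 7.68 CPM in the other 8. The same 4 libraries had summed levels of 5 ovarian marker genes of 119 to 279 CPM against 46.8 to 75.9 CPM in the other 8. The fold changes of the C/EBP genes and the calls on gene lists and markers are given with and without them. Levels per kilobase and shares are given for all 12 libraries only. Ratios and most alike genes are given without these libraries only in part. Markers of testis cells were present in every pool, with a summed level of 446 to 924 CPM for 5 Sertoli cell genes and 812 to 1460 CPM for 5 germ cell genes. Nothing in the labels says whether pools came from separate litters, so p-values measure the spread between these pools.

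All 5 C/EBP genes passed the filter on low counts, and 1 of them, Cebpb, differed between the genotypes. Cebpb was lower in the cKO by 39.2%. Cebpa, Cebpd, Cebpe and Cebpg did not pass the test. Of all 15572 genes tested, 1266 were called at an adjusted p under 0.05 (8.13%), 756 of them lower in the cKO (4.85%) and 510 higher (3.28%). By count alone, 1 call among 5 genes says nothing particular about the family. Groups did not overlap for 1 of the 5 C/EBP genes, and for 5.52% of all genes.

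Cebpb, the family member of the cytokine and cyclic AMP response, had 9.85, 9.52, 9.58, 14, 9.72 and 11.7 CPM in control replicates 1 to 6. In cKO replicates 1 to 6 it had 9.02, 6.15, 5.4, 6.28, 3.94 and 7.53 CPM. All 6 cKO pools were below every control pool, although cKO replicate 1 came close to the lowest control. The means were 10.7 ± 1.81 CPM (SD, n = 6) in control and 6.39 ± 1.75 CPM (SD, n = 6) in cKO. The log2 fold change was -0.72 with a standard error of 0.17 and a 95% interval of -1.08 to -0.36 (edgeR quasi-likelihood test, adjusted p = 0.0175). Read counts for Cebpb ran from 29 to 450 per library, and counting alone would give a coefficient of variation of 7.44% in control and 10.1% in cKO, against the measured 16.9% and 27.4%.

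The 8 libraries with low Xist gave a weaker result for Cebpb. The 5 control pools among them had a mean of 10.9 CPM and the 3 cKO pools a mean of 7.15 CPM, still without overlap, and the log2 fold change was -0.59 with an adjusted p of 0.0678 by the same edgeR test, which did not pass. In those 8 libraries 7.08% of 15586 genes were called. Among the libraries with high Xist, the single control pool had 9.85 CPM and the 3 cKO pools a mean of 5.62 CPM. With the log2 level of Xist as a covariate in all 12 libraries the log2 fold change was -0.65 (edgeR, adjusted p = 0.0241). The part that Xist-expressing cells had in the change was not tested further.

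**Figure D1:**
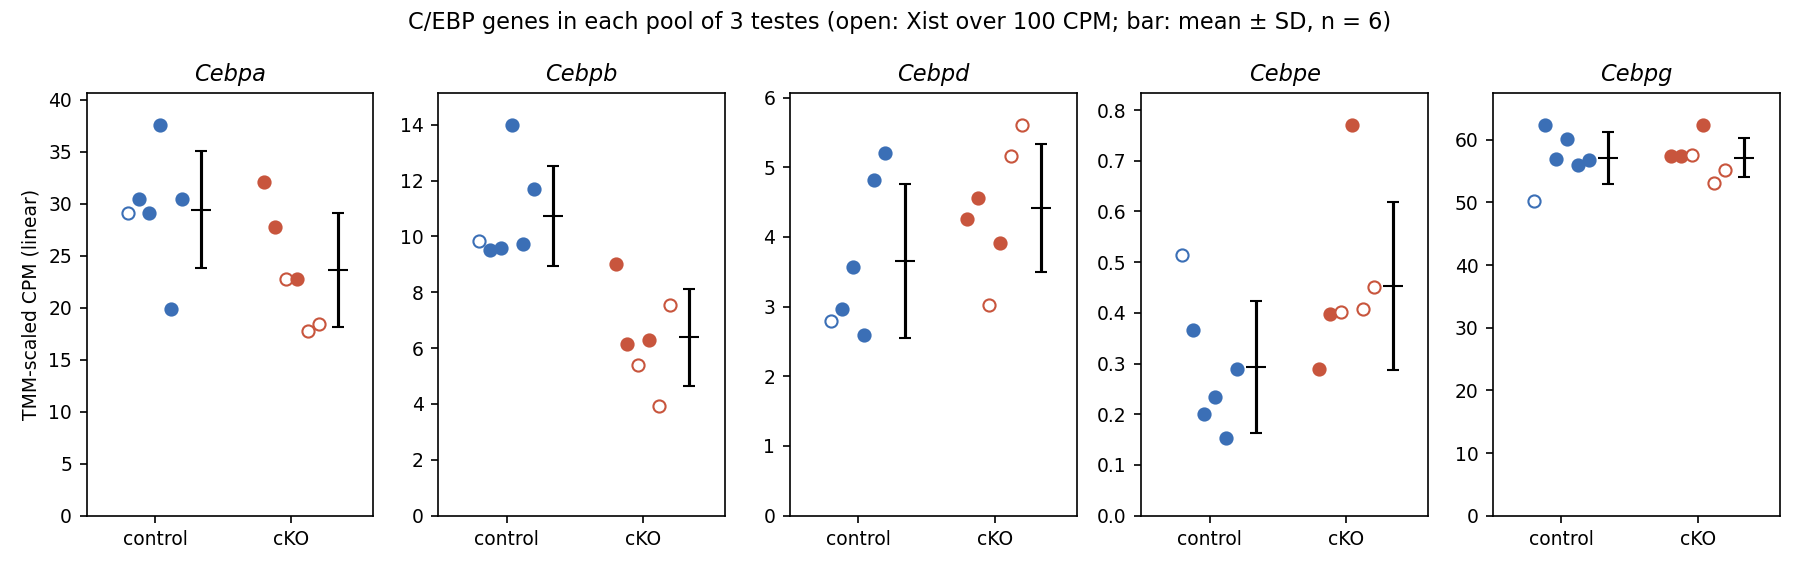
Level of each C/EBP gene (TMM-scaled CPM, linear axis from 0) in the 6 control and 6 cKO pools. Each point is 1 pool of 3 testes, open points are the 4 libraries with Xist over 100 CPM, and the bar beside each group is the mean ± SD. The 6 cKO pools lie below the 6 control pools for Cebpb, from 3.94 to 9.02 against 9.52 to 14 CPM, and the groups overlap for the other 4 genes.

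Cebpa, the myeloid and adipogenic regulator, had 29.1, 30.5, 29.1, 37.6, 19.9 and 30.5 CPM in control replicates 1 to 6 and 32.1, 27.8, 22.8, 22.8, 17.8 and 18.4 CPM in cKO replicates 1 to 6. The groups overlapped: 2 of 6 cKO pools were below every control pool, and control replicate 5 stood among the cKO values. The means of 29.4 ± 5.65 and 23.6 ± 5.52 CPM (SD, n = 6 each) gave a log2 fold change of -0.32 with a 95% interval of -0.65 to 0.023, which did not pass (edgeR, adjusted p = 0.226). In the 8 libraries with low Xist the log2 fold change was -0.099 (edgeR, adjusted p = 0.725). The lowest Cebpa values of the cKO, 17.8 and 18.4 CPM, were both from libraries with high Xist.

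Cebpg, the dimer partner, had the smallest spread between pools of the 5 genes, 7.31% of the mean in control and 5.42% in cKO. Its control pools had 50.2, 62.4, 56.9, 60.2, 55.9 and 56.8 CPM and its cKO pools 57.4, 57.4, 57.5, 62.4, 53.1 and 55.2 CPM. These ranges lay on top of each other, with means of 57.1 ± 4.17 and 57.2 ± 3.1 CPM (SD, n = 6 each). The 95% interval of the log2 fold change was -0.13 to 0.14 (edgeR, adjusted p = 0.977), that is, 0.911 to 1.1 times the control level. In the 8 libraries with low Xist the log2 fold change was 0.02 (edgeR, adjusted p = 0.876).

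Cebpd, the other cytokine-responsive member, had 2.79, 2.97, 3.57, 2.59, 4.82 and 5.21 CPM in the control pools and 4.26, 4.56, 3.02, 3.91, 5.16 and 5.61 CPM in the cKO pools. Only 1 cKO pool was above every control pool. The log2 fold change was 0.30 with a 95% interval of -0.13 to 0.74 and did not pass (edgeR, adjusted p = 0.359). It was 0.21 in the 8 libraries with low Xist (edgeR, adjusted p = 0.514). In both groups the spread between pools, 30.3% and 20.8% of the mean, was above the 12.4% and 10.8% expected from counting.

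Cebpe, the granulocyte member, was near the limit of detection, with 2 to 27 counts per library and 129 counts in all 12. Control replicates 1 to 6 had 0.514, 0.366, 0.201, 0.235, 0.153 and 0.289 CPM, and cKO replicates 1 to 6 had 0.289, 0.397, 0.402, 0.771, 0.407 and 0.452 CPM. The groups overlapped and cKO replicate 4 stood above the rest. The log2 fold change of 0.58 had a 95% interval of -0.11 to 1.28 (edgeR, adjusted p = 0.272). Counting alone would give a spread of 49.8% in control and 35.9% in cKO, close to the measured 44.6% and 36.4%. In the 8 libraries with low Xist the filter removed Cebpe, where the group means were 0.249 and 0.485 CPM.

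**Figure D2:**
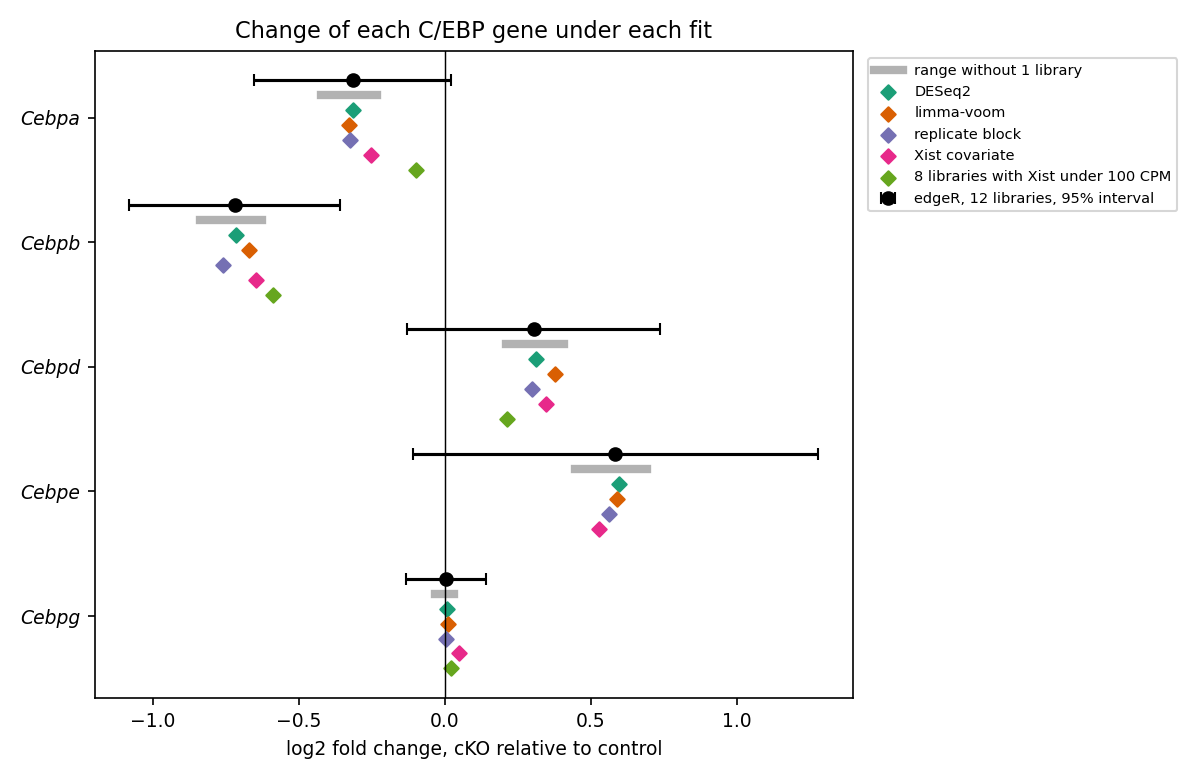
Log2 fold change of each C/EBP gene, cKO relative to control, under each fit. Black points and bars are the edgeR estimate and its 95% interval with 12 libraries, grey bars the range when each library is left out in turn (8 of the 12 such fits for Cebpe, which the filter removed in the rest), and diamonds the other fits. Cebpb lies below 0 in every fit shown, from -0.84 to -0.59, and Cebpg lies around 0.

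Levels between genes were compared per kilobase of exon. Cebpg and Cebpa came first in control, with 12.1 ± 0.888 and 11.2 ± 2.15 CPM per kilobase (SD, n = 6 each), and these neighbours in the order did not differ beyond their spread. Cebpb followed with 7.14 ± 1.21 CPM per kilobase, and its range of 6.33 to 9.33 lay below that of Cebpg, 10.7 to 13.3, and overlapped that of Cebpa, 7.58 to 14.3. Cebpd was at 1.62 ± 0.49 and Cebpe at 0.237 ± 0.106 CPM per kilobase, each with a range that did not reach the gene above it. The order was the same in the cKO, where the levels per kilobase were 12.2 ± 0.659 for Cebpg, 8.99 ± 2.1 for Cebpa, 4.25 ± 1.16 for Cebpb, 1.96 ± 0.407 for Cebpd and 0.366 ± 0.133 for Cebpe. There the range of Cebpg, 11.3 to 13.3, still overlapped that of Cebpa, 6.77 to 12.2, while that of Cebpb, 2.62 to 6, lay below both.

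As shares of the summed level of the 5 genes per kilobase, Cebpb took 22 ± 1.96% in control and 15.1 ± 2.94% in cKO (SD, n = 6 each). Cebpg took 37.7 ± 3.22% and 44.2 ± 4.03%, Cebpa 34.5 ± 3.93% and 32.2 ± 4.31%, Cebpd 5.09 ± 1.75% and 7.17 ± 1.95%, and Cebpe 0.739 ± 0.359% and 1.34 ± 0.486%. The Cebpb share was 19.3% to 24.7% in the control pools and 11.2% to 18.8% in the cKO pools, without overlap. These shares describe transcripts of a mixed tissue and were not tested.

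**Figure D3:**
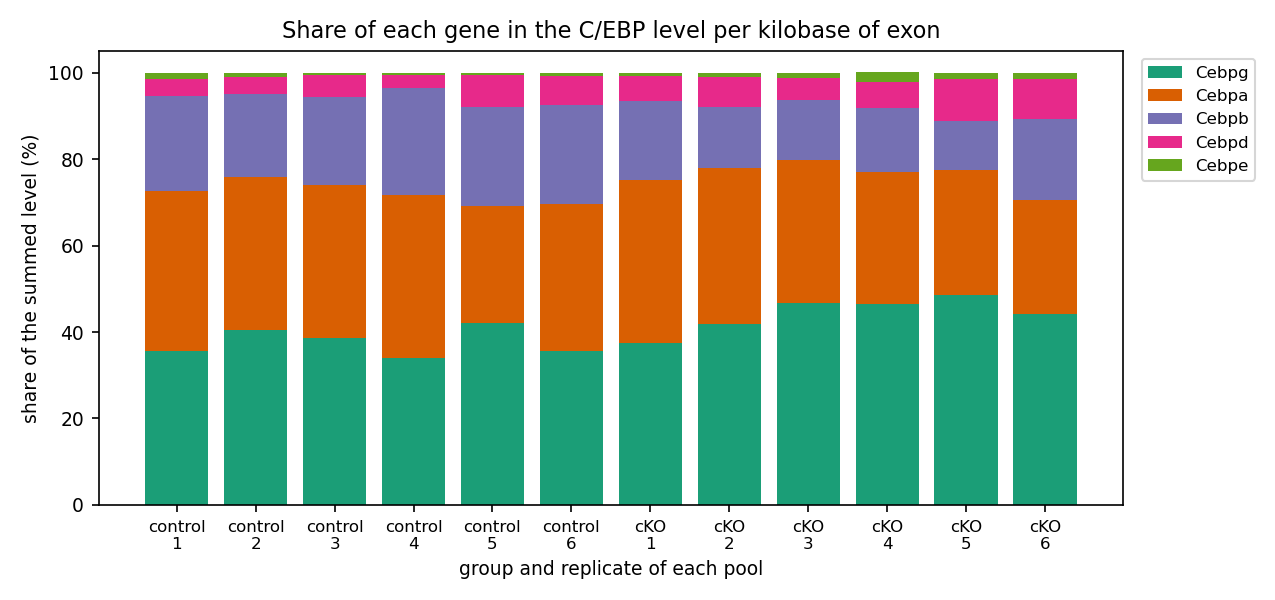
Share of each gene (percent, stacked) in the summed level of the 5 C/EBP genes per kilobase of exon, 1 bar for each pool. The Cebpb band is 19.3% to 24.7% in the 6 control pools and 11.2% to 18.8% in the 6 cKO pools.

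Ratios within a library depend little on its scaling, and Cebpb fell against 3 of its 4 relatives. Each of these ratios carries the change of Cebpb itself, so they are not separate evidence for it. Each of the 10 pairs of members was compared by the log2 ratio per library with an exact two-sided permutation test over the 924 splits, adjusted over the 10 pairs, and 3 passed. The log2 ratio of Cebpb to Cebpg was -2.34, -2.7, -2.56, -2.09, -2.51 and -2.27 in control replicates 1 to 6 and -2.66, -3.21, -3.39, -3.3, -3.73 and -2.86 in cKO replicates 1 to 6. Of the cKO pools 5 of 6 were below every control pool, and the difference was -0.78 (exact permutation test, adjusted p = 0.0216). Cebpb to Cebpd differed by -1.06 and Cebpb to Cebpe by -1.31, each with 5 of 6 cKO pools below every control pool and an adjusted p of 0.0216 by the exact permutation test. The ratio of Cebpa to Cebpb differed by 0.45, with 5 of 6 cKO pools above every control pool, and did not pass (adjusted p = 0.0519, exact test). In the 8 libraries with low Xist all 10 differences kept their sign but 0 passed after adjustment and 3 had an unadjusted p under 0.05. With 5 pools against 3 the smallest p of the exact test was 0.0179, so that after adjustment over 10 pairs the 8 libraries could pass only if several pairs reached it.

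The pools also differed in the genes of the cells in which C/EBP factors act. The summed level of 5 fetal Leydig cell genes was 1560 to 2910 CPM in control and 841 to 1750 CPM in cKO, with 4 of 5 lower, and that of 5 interstitial cell genes, Nr2f2 included, was 1110 to 1420 and 630 to 1140 CPM, with 3 of 5 lower. The summed level of 10 macrophage genes was 54.4 to 84.1 CPM in control and 79.8 to 98.2 CPM in cKO, with 3 of 10 higher. The summed level of 7 neutrophil genes was 9.42 to 84 and 8.86 to 55.5 CPM, with 0 of 7 called. Of the markers of other cell types single genes were called, against 8.13% of all genes: 1 of 5 erythroid genes was lower (Hbb-bs; sums of 1060 to 1550 and 726 to 1090 CPM), 1 of 5 endothelial genes was lower (Tek; 309 to 441 and 310 to 376 CPM), 1 of 4 adrenal genes was higher (Mc2r; 13 to 24.2 and 20.1 to 24.1 CPM), 1 of 4 genes of the mesonephric epithelium was higher (Pax8; 4.71 to 8.96 and 7.47 to 10.7 CPM), and 1 of 5 ovarian genes was lower (Wnt4; 60.9 to 279 and 46.8 to 167 CPM). With the 8 low-Xist libraries alone, the 4 Leydig and 3 interstitial genes, Mc2r and Wnt4 kept their calls by edgeR, Csf1r and Cx3cr1 kept theirs among the macrophage genes, and C1qb, Hbb-bs, Tek and Pax8 did not pass (adjusted p = 0.0644, 0.0692, 0.182 and 0.0808). The 5 ovarian genes had a median log2 difference of 0.49 over the 12 libraries. Among the low-Xist libraries the ovarian genes Foxl2 (1.45), Fst (0.62) and Bmp2 (0.67) and the germ cell gene Nanos2 (0.38) were called higher (edgeR, adjusted p = 0.00958, 0.0216, 0.0379 and 0.032). None of these marker genes was at 0 in all 12 libraries. In bulk tissue, fewer cells of a type and less RNA per cell cannot be told apart. The part of these cell types in the change of Cebpb was not tested. The ratios that follow do not give it, since each joins the change of a C/EBP gene to that of a marker gene.

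Each C/EBP gene was set against 4 fetal Leydig cell genes and 4 macrophage genes, 40 ratios in all, by the same exact permutation test with adjustment over the 40. Of these, 25 passed, 12 of 20 to Leydig genes and 13 of 20 to macrophage genes. Of the 4 ratios of Cebpb to Leydig genes 1 passed. The log2 ratio of Cebpb to Cyp11a1, the enzyme that cleaves the cholesterol side chain, differed by 0.18 (adjusted p = 0.508, exact test), and to Hsd3b1, which makes progesterone from pregnenolone, by -0.19 (adjusted p = 0.458, exact test). Neither passed, nor did the ratio to Cyp17a1, the androgen branch enzyme, which differed by 0.44 (adjusted p = 0.197, exact test). The ratio of Cebpb to Star fell by 0.56 on the log2 scale (adjusted p = 0.0485, exact test, 4 of 6 cKO pools below every control), a call that was lost in 10 of 12 fits when single libraries were left out, with an adjusted p of up to 0.0938.

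Against 4 macrophage genes whose own log2 fold changes were 0.44 to 0.92, the ratios of Cebpb were lower. Of the 25 myeloid genes 20 had a positive log2 fold change, but among those not used for ratios it was 0.05 for Mrc1, -0.41 for Mertk and -0.72 for Irf8, the last close to that of Cebpb (none of the 3 passed, edgeR, adjusted p = 0.85, 0.0566 and 0.059). The log2 ratio of Cebpb to Csf1r, the receptor for the macrophage growth factor, was -0.84 to 0.11 in control and -2.34 to -1.12 in cKO, with all 6 cKO pools below every control, and differed by -1.21 (adjusted p = 0.0108, exact test). To Cx3cr1, the fractalkine receptor, it was 0.13 to 1.16 in control and -1.41 to -0.44 in cKO and differed by -1.72 (adjusted p = 0.0108, exact test). The differences to Adgre1 and C1qa were -1.32 and -1.4 (adjusted p = 0.0144 for each, exact test). The 4 differences kept their sign in the 8 libraries with low Xist, where they were between -1.81 and -1.12, with adjusted p of 0.0649 to 0.084 in the exact test.

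None of the other members passed the test on its own, and the changes of the marker genes are part of each ratio. Cebpg, with a log2 fold change of 0.00, had 7 of 8 ratios past the threshold, 3 of them higher (to Cyp11a1 by 0.96, Cyp17a1 by 1.22 and Hsd3b1 by 0.59, adjusted p = 0.0108, 0.0108 and 0.0204, exact test) and 4 lower, to the macrophage genes, by -0.43 for Csf1r to -0.94 for Cx3cr1. These values restate the changes of the marker genes with the sign turned. Cebpa had 6 of 8 past the threshold. Its ratios to Cyp11a1 and Cyp17a1 were higher by 0.63 and 0.89 (adjusted p = 0.0186 for each, exact test), and those to Csf1r, Adgre1, C1qa and Cx3cr1 were lower, by -0.76, -0.87, -0.95 and -1.27 (adjusted p = 0.0241, 0.0354, 0.0354 and 0.0108, exact test). When single libraries were left out, the call to Adgre1 was lost in 9 of 12 fits and that to C1qa in 7, and with the 8 low-Xist libraries the differences to Csf1r, Adgre1 and C1qa were -0.6, -0.62 and -0.63 (adjusted p = 0.2, 0.276 and 0.255, exact test). Its ratio to Star differed by -0.12, which did not pass (adjusted p = 0.49, exact test).

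Cebpd was higher relative to Cyp11a1 by 1.25, Cyp17a1 by 1.51 and Hsd3b1 by 0.87 (adjusted p = 0.0144, 0.0108 and 0.0144, exact test) and lower relative to C1qa by -0.33 (adjusted p = 0.0469, exact test), the last a call lost in 9 of 12 fits without single libraries. Its ratios to Csf1r, Adgre1 and Cx3cr1 differed by -0.15, -0.26 and -0.65 and did not pass (adjusted p = 0.491, 0.273 and 0.106, exact test). Cebpe, with few counts, was higher relative to Cyp11a1 by 1.5, Cyp17a1 by 1.76 and Hsd3b1 by 1.12 (adjusted p = 0.0204, 0.0204 and 0.0414, exact test), and the call to Hsd3b1 was lost in 9 of 12 fits without single libraries. None of its 4 ratios to macrophage genes passed, and the sign of those to Adgre1, C1qa and Csf1r turned when single libraries were left out.

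**Figure D4:**
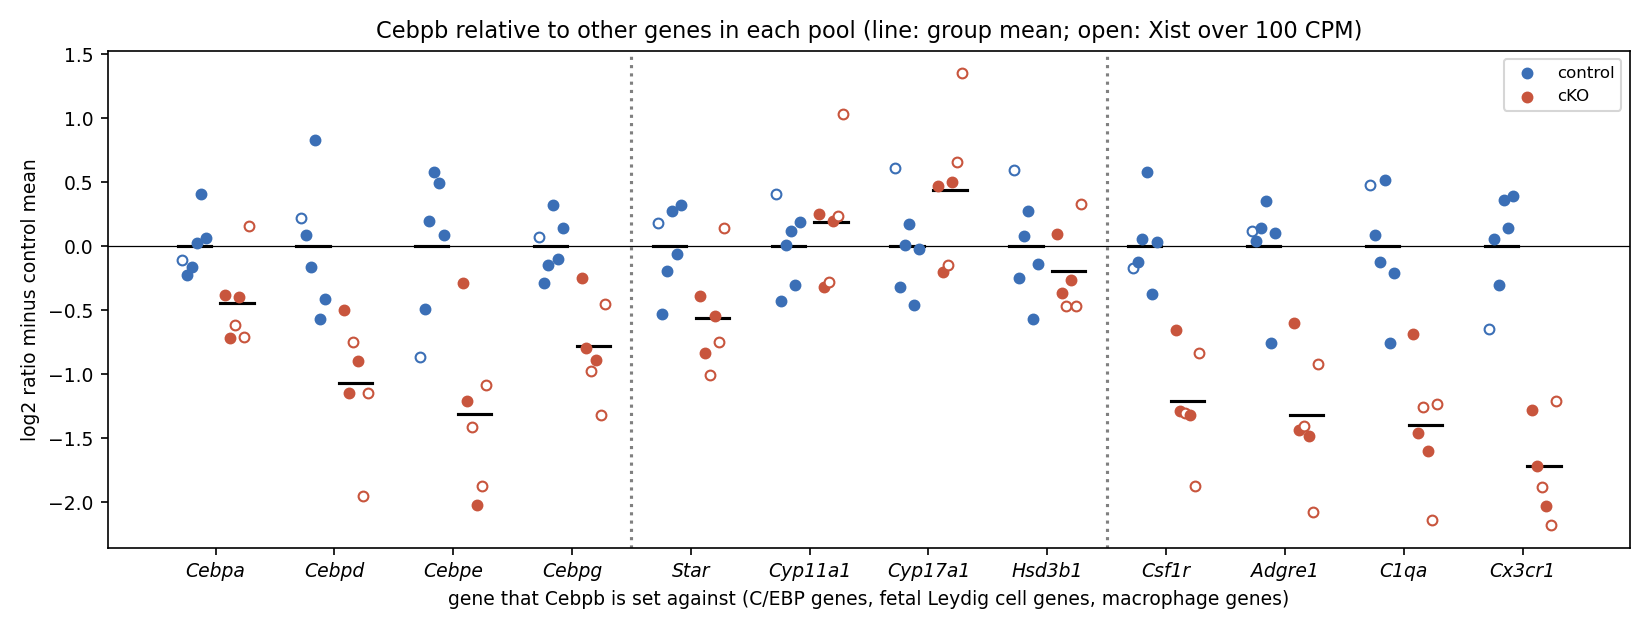
Log2 ratio of Cebpb to each of 12 genes in each pool, minus the mean of the control pools. Points are pools, open points the 4 libraries with Xist over 100 CPM, and lines the group means. The cKO means lie between -0.56 and 0.44 for the 4 fetal Leydig cell genes and between -1.72 and -1.21 for the 4 macrophage genes.

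The list of interacting and site-sharing genes held 14 bZIP genes and also Cebpz and Cebpzos, which carry the name but are not bZIP genes. Of the 14 bZIP genes, 12 were tested, 1 was lower and 0 were higher, a share near the 8.13% called over all genes, with a median log2 fold change of -0.052 against 0.003 over all genes (-0.059 with Cebpz and Cebpzos, neither of which passed). The lower gene was Atf4, the factor of the amino acid and unfolded protein response that dimerizes with C/EBP proteins, at 111 ± 15 CPM in the control and 90.7 ± 3.41 CPM in the cKO pools (SD, n = 6 each). Its log2 fold change was -0.29 (edgeR, adjusted p = 0.0409), the groups overlapped, and the call was lost in 11 of the 12 fits without 1 library. Atf4 was again the 1 gene of the list called in the 8 libraries with low Xist (-0.34, edgeR, adjusted p = 0.0472). Ddit3, the CHOP protein that forms inhibitory dimers with C/EBP, had 6.59 ± 1.26 and 5.24 ± 0.552 CPM and did not pass (edgeR, log2 fold change -0.31, adjusted p = 0.159). At an unadjusted p under 0.05, 4 of the bZIP genes were lower and 1 was higher. The share of all genes at that threshold was not counted, so nothing is read from this count.

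The list of signals that act on C/EBP genes or proteins had 26 of 30 genes tested, of which 4 were lower and 1 was higher (4.85% and 3.28% over all genes), with a median of 0.015. The lower genes were Lhcgr, the receptor for luteinizing hormone (-0.81, edgeR, adjusted p = 0.0146), Il1r1, the interleukin 1 receptor (-0.48, adjusted p = 0.0237), Trib2, an adaptor that sends C/EBPα to degradation (-0.40, adjusted p = 0.0363), and Socs3, a feedback inhibitor of cytokine signalling (-0.38, adjusted p = 0.016). Fbxw7, a ubiquitin ligase subunit, was higher (0.28, edgeR, adjusted p = 0.0164). Lhcgr was at 48.5 to 71.6 CPM in control and 21.7 to 48.2 CPM in cKO, and Socs3 at 13.1 to 17.2 and 10.9 to 13 CPM, both without overlap. Without the libraries with high Xist, Lhcgr and Socs3 kept their calls. The other 3 did not pass there, at -0.39 for Il1r1, -0.25 for Trib2 and 0.2 for Fbxw7 (edgeR, adjusted p = 0.0845, 0.135 and 0.0875). The cytokine genes Il6, Il1b, Tnf and Osm were removed by the filter, with means of at most 0.108 CPM in either group.

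Of 18 steroidogenic genes, 7 were lower and 0 were higher (4.85% and 3.28% over all genes), with a median log2 fold change of -0.2. Insl3, the Leydig cell hormone of testis descent, fell most, from 7.15 ± 4.35 to 1.32 ± 0.822 CPM (SD, n = 6 each; log2 fold change -2.35, edgeR, adjusted p = 0.00434). Cyp17a1 fell by 1.15 on the log2 scale (edgeR, adjusted p = 0.011), Cyp11a1 by 0.91 (adjusted p = 0.0152) and Hsd3b1 by 0.61 (adjusted p = 0.0365, lost in 8 of 12 fits without single libraries). The other lower genes were Lhcgr, Fdx1 and Hsd17b7, of which Hsd17b7 (-0.28, edgeR, adjusted p = 0.0472) lost its call in 10 of 12 fits without single libraries and in the 8 libraries with low Xist (-0.2, edgeR, adjusted p = 0.117). Gata6, a factor of gonadal somatic cells, had 61.4 ± 13.5 CPM in the control and 82.5 ± 10.5 CPM in the cKO pools (SD, n = 6 each). It did not pass (0.42, edgeR, adjusted p = 0.0548), but DESeq2 called it higher, and so did edgeR in the 8 libraries with low Xist (0.43, adjusted p = 0.0126). In those 8 libraries 6 of the 18 genes were lower and 1 was higher, against 7.08% of all genes called in either direction. Nr5a1, the steroidogenic factor, was also near the threshold (-0.31, edgeR, adjusted p = 0.0517) and was called lower by DESeq2, with -0.21 in the 8 libraries (edgeR, adjusted p = 0.223). Star, the gene with the best known C/EBPβ site, averaged 150 ± 25.1 CPM in the control and 131 ± 31 CPM in the cKO pools (SD, n = 6 each) and did not pass (log2 fold change -0.19, edgeR, adjusted p = 0.454).

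Of 25 myeloid genes, 4 were higher and 0 were lower (3.28% and 4.85% over all genes), with a median of 0.28 against 0.003 over all genes. They were Cx3cr1 (log2 fold change 0.92, edgeR, adjusted p = 0.00185), the lipid receptor Trem2 (0.69, adjusted p = 0.0331), the complement gene C1qb (0.64, adjusted p = 0.0255) and Csf1r (0.44, adjusted p = 0.00749). Csf1r was at 12.8 to 17.4 CPM in control and 18.6 to 22 CPM in cKO, without overlap. Without the libraries with high Xist, Csf1r and Cx3cr1 kept their calls, and C1qb and Trem2 did not pass although their log2 fold changes were 0.69 and 0.71 (edgeR, adjusted p = 0.0644 and 0.0792). At an unadjusted p under 0.05, 11 myeloid genes were higher and 2 were lower, and DESeq2 called 6 higher and 2 lower, the latter being Irf8 and Mertk. Over the whole table DESeq2 called 1919 genes. The share of all genes at the unadjusted threshold was not counted, so the unadjusted counts have no background here.

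Granule genes of neutrophils, many of them known targets of C/EBPε, had 10 of 16 members tested. Of these 0 were called by edgeR (8.13% over all genes), 1 was at an unadjusted p under 0.05 and 1 was called by DESeq2 (Mpo, higher). Their median log2 fold change was -0.9, but the values varied widely between pools of 1 group, as with S100a8 at 1.87 to 24.9 CPM in control and 1.98 to 11.2 CPM in cKO. The median was -0.81 over the 12 granule genes tested in the 8 libraries with low Xist. Of the adipogenic genes 14 of 16 were tested, and 1 was lower and 1 was higher (4.85% and 3.28% over all genes). Cd36, a fatty acid transporter, was lower (-0.95, edgeR, adjusted p = 0.003) and Lpl, the lipoprotein lipase, was higher (0.89, edgeR, adjusted p = 0.018). Both kept their calls in the 8 libraries with low Xist, at -1.04 and 1.06 (edgeR, adjusted p = 0.0198 and 0.000772), where Scd1, a fatty acid desaturase, was also lower (-0.47, adjusted p = 0.0164). Over the 12 libraries Scd1 was at -0.33 (edgeR, adjusted p = 0.0662) and was called by DESeq2. Pparg, the partner of C/EBPα in fat cells, ran from 0.0754 to 1.27 CPM in the control pools and from 0.132 to 5.02 CPM in the cKO pools and did not pass (edgeR, adjusted p = 0.203).

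**Figure D5:**
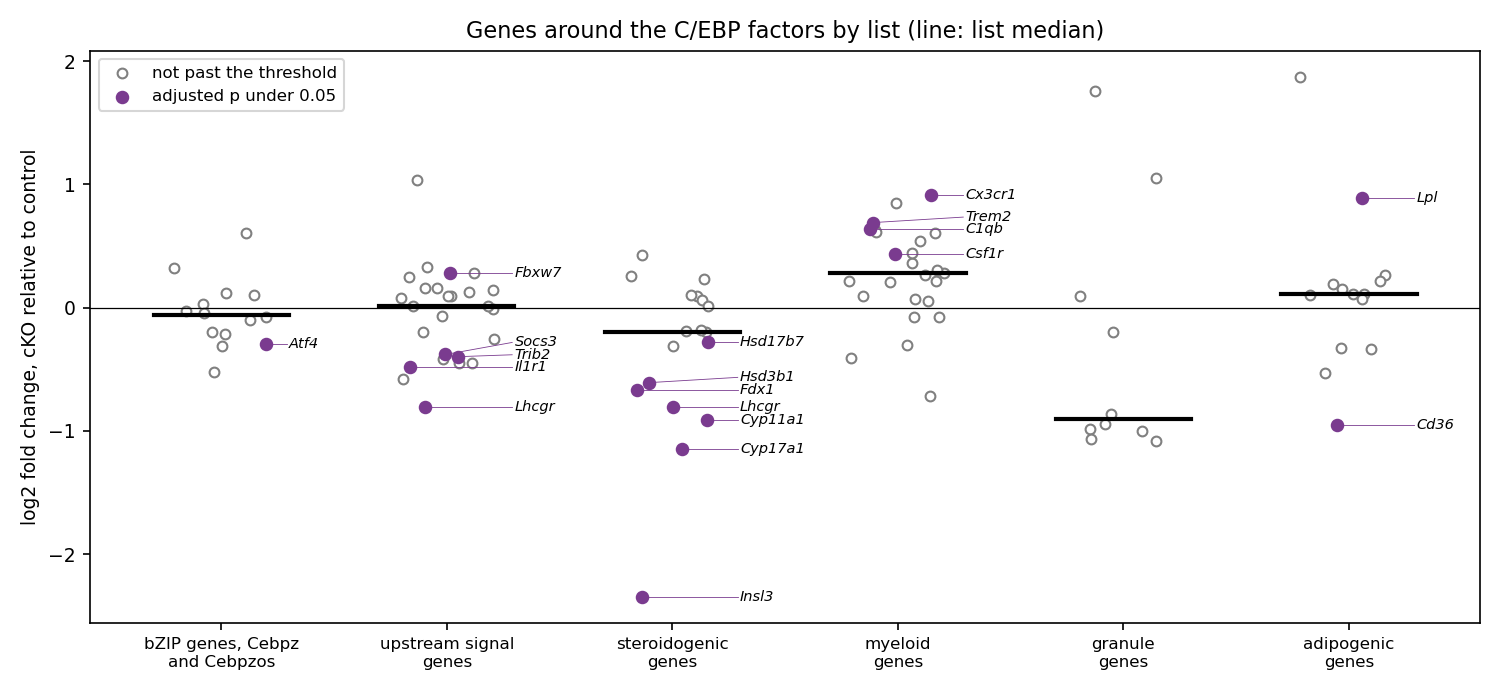
Log2 fold change, cKO relative to control, of the tested genes in each list around the C/EBP factors. Filled points passed an adjusted p under 0.05 and are named, open points did not, and the thick line is the list median, which ran from -0.9 for granule genes to 0.28 for myeloid genes.

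Pools of 1 group also differed among themselves, and the genes that varied most like each C/EBP gene were found from the deviations of log2 CPM from the group mean over the 12 libraries, over the genes whose mean reached 1 CPM. Such r values share the libraries, their depth and their cell mixture, come from a search over 14261 genes (14262 for Cebpe), and are given as a description with no test. For Cebpb the 5 genes were Rab39b (r = 0.869), Insl3 (0.861), 1110006O24Rik (0.856), H1f2 (0.836) and Myorg (0.83). In the 8 libraries with low Xist the r of Cebpb was 0.952 with 1110006O24Rik, 0.928 with Insl3, 0.89 with Myorg, 0.783 with H1f2 and 0.723 with Rab39b. Cebpa varied most like Rapgef4 (0.967), followed by Cmklr1, Ass1, Tubg2 and Hspa1b, of which the last had r = 0.948. Cebpd was nearest to 1700030K09Rik (0.984), then Magea10, Wnk3, Pfkfb1 and Trdmt1. For Cebpg the order was Arrdc4 (0.933), Cd86, Tspoap1, Inha and Pkd2l1, and for Cebpe it was Ocrl (0.859), Ehbp1l1, 4933431E20Rik, Fsd1l and Zfp641. Among the C/EBP genes themselves, Cebpa and Cebpb had the highest r, 0.605, and Cebpa and Cebpd the lowest, -0.495.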

How the data were processed

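Whole testes were pooled by 3 for each of the 12 libraries. The authors trimmed the reads with Trim Galore 0.6.7, aligned them to mm10 with STAR 2.5, counted them by strand on RefSeq Curated gene models with featureCounts (Subread 1.5.0-p1), and deposited raw counts per gene, with neither normalization nor a filter. All 12 libraries were used, grouped by the labels. No pair of libraries within a group agreed within sampling noise.

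The count matrix was tested in edgeR 4.0.16 under R 4.3.3 (TMM, filterByExpr at 10 counts and a total of 15, quasi-likelihood test without covariate). P-values were adjusted by Benjamini-Hochberg over the 15572 genes tested, with a threshold of 0.05. The study's own test was DESeq2, which was run in version 1.42.0 as an alternative, as was limma-voom (3.58.1). Log2 CPM took a prior count of 2. Levels per kilobase used GENCODE exons within the counted interval. Depth ran from 7044531 to 59404778 counts, and the spread between pools set the precision except for Cebpe.

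The tests were tried on simulated counts for 15572 genes, where edgeR recovered 87 of 100 genes changed by 1 and 69 of 100 changed by 0.7 on the log2 scale. Of the 167 calls of edgeR there, 11 were false, and of the 196 calls of DESeq2, 33 were false. The C/EBP genes, the gene lists and the alternatives were chosen with earlier results of these data known, and the CCAAT letters were added to the promoter search later still. Named from each list were the called genes where 5 or fewer were called, otherwise the 2 largest in each direction with a mean of at least 1 CPM, besides the 8 genes of the ratios, Ddit3 and Atf4, and for each member the 5 most alike genes. Values named outside this rule (S100a8, Pparg, Il6, Il1b, Tnf, Osm, Irf8, Mertk, Fdx1, Hsd17b7, Gata6, Nr5a1, Scd1, Mrc1, Mpo and the called cell type markers) were chosen after they were seen. Alternatives were other scaling, filters, tools and prior counts, a replicate block, each library left out, the 8 libraries with Xist under 100 CPM, and Xist as a covariate. Replicate numbers are not said to pair the pools.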

Additional observations from a re-analysis of the deposited data

Results flagged for a closer look

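Cebpe in cKO replicate 4 stood apart from the other cKO pools, with 0.771 CPM against 0.452 CPM in the nearest pool. The gap was 0.661 of the range of the group, above Dixon's critical value of 0.625 for 6 samples. It rests on 26 counts. Among 30 values examined in this way, 1.5 would be expected to pass by chance.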

How the results depend on the processing

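The fall of Cebpb kept its direction in every alternative run and passed in all but one: with the 8 low-Xist libraries alone (under 100 CPM), Cebpb stood at -0.588 on the log2 scale (edgeR, adjusted p = 0.0678) and 0 C/EBP genes were called, with 1 at an unadjusted p under 0.05. Without single libraries it ran from -0.84 to -0.626 (adjusted p 0.00877 to 0.0458), with 1 C/EBP gene called in each fit. The estimate of Cebpg stood at 0 within its error and turned to -0.00206 with a mean of at least 1 CPM as the filter, and ran from -0.0333 to 0.0319 without single libraries. Cebpe was removed by that filter, in the 8 libraries and in 4 of the 12 fits without a library, and has no value there.

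The number of genes called over the table was 1266, against 1919 by DESeq2 and 816 to 3106 without single libraries, the extremes being without cKO replicate 4 and without control replicate 1. Ratios between members that passed numbered 0 in the 8 libraries, 0 under sign permutation of same-numbered pools and 3 to 6 without single libraries, the 6 being without control replicate 1. Ratios to Leydig and macrophage genes that passed numbered 0 in the 8 libraries (17 of 40 at an unadjusted p under 0.05), 0 under sign permutation (21 of 40) and 18 to 24 without single libraries. The smallest p was 0.0179 with 8 libraries and 0.0312 under sign permutation. The ratio of Cebpe to Adgre1 turned to 0.0806 with a prior count of 0.5, to 0.196 in the 8 libraries, and ran from -0.256 to 0.191 without single libraries. That of Cebpe to C1qa turned to 0.00439, 0.191 and ran from -0.332 to 0.185, and that of Cebpe to Csf1r ran from -0.0685 to 0.242.

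The bZIP, Cebpz and Cebpzos genes called numbered 0 with upper quartile factors, limma-voom, the replicate block or Xist as a covariate, and 0 to 4 without single libraries. Upstream signal genes called were 10 by DESeq2, 3 with the replicate block, 2 in the 8 libraries and 3 to 10 without single libraries. Myeloid genes called were 8 by DESeq2, 9 by limma-voom, 7 with Xist as a covariate, 2 in the 8 libraries and 2 to 9 without single libraries. Granule genes called were 1 by DESeq2, 1 with Xist as a covariate and 0 to 1 without single libraries. Steroidogenic genes called were 5 to 9 and adipogenic genes 2 to 3 without single libraries. Among the genes of these lists and the cell type markers called with 12 libraries, the calls lost without some library were those of Atf4 (11 of 12 fits), Hsd17b7 (10), Pax8 (10), Trib2 (8), Hsd3b1 (8), Tek (8), Trem2 (7), Hbb-bs (7), C1qb (4), Wnt5a (3), Il1r1 (2) and Wnt4 (2). The causes of these differences were not tested.

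With the replicate number as a block, the log2 fold change of Cebpb was -0.759 at an adjusted p of 0.0228 (edgeR) and 931 genes were called. Same-numbered pools deviated together only in part (r from -0.334 to 0.242), and 0 of 6 control pools varied most like the cKO pool of their number. Depth limits Cebpe, whose counts reach down to 2 in a library.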
